A study of Mus musculus with 3 samples.

Results

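The genes described here differed from the control library in the same direction after either of 2 siRNAs against SR proteins in MIN6 cells. Reads in each library were scaled to its total as CPM, and genes with at least 20 reads in any library were compared. A gene was called higher when its CPM was at least 2-fold that of the control in both siRNA libraries, and lower when it was at most 0.5 of it in both. In each case the 95% counting interval of both ratios had to exclude 1. Of 11756 compared genes, out of 21899 gene symbols in the table, 115 were higher in both (0.978%) and 24 were lower in both (0.204%), 139 in all. These percentages follow from the calls that chose the members, so nothing is read from them.

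MIN6 cells come from a mouse insulinoma, secrete insulin and stand in for beta cells in culture. All 3 cultures were transfected with an siRNA, and total RNA was taken with Trizol and made into libraries by a Lifetech protocol. The siSRSF1 library came from cells given an siRNA against Srsf1 (ASF in the older naming), the siSRSF2 library from cells given one against Srsf2 (SC35), and the siNC library from cells given a negative control siRNA. The labels name no dose, time after transfection or passage, and the sources used here do not say whether the reads keep strand. Each group is 1 library, so no difference has a replicate check. The intervals cover counting error only, and both ratios of a gene share the same siNC library.

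SR proteins bind exonic sequences of pre-mRNA and promote splicing, and SRSF1 and SRSF2 also act in transcription, export, translation and nonsense-mediated decay. A beta cell packs insulin with other peptides into secretory granules, and its identity rests on transcription factors such as INSM1, MAFA and NKX6-1. Transcripts of single-exon genes are made without splicing.

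Totals were 14478045 reads in siSRSF1, 14682576 in siSRSF2 and 12688334 in siNC. Srsf1 had 3171 reads in siSRSF1 and 4105 in siSRSF2, against 4070 in siNC, so its own siRNA left a ratio of 0.683 (0.652 to 0.715). Srsf2 had 1302 reads in siSRSF1 and 487 in siSRSF2, against 1193 in siNC, and its own siRNA left a ratio of 0.353 (0.317 to 0.392). The 12 beta-cell markers summed to 49584 CPM in siSRSF1, 57736 in siSRSF2 and 52415 in siNC, mostly from Ins2, Iapp and Ins1. None was at 0 in all libraries, but Ucn3 had only 9 reads in siSRSF1, 7 in siSRSF2 and 1 in siNC. Slc2a2 was also low, with 114 reads in siSRSF1, 7 in siSRSF2 and 42 in siNC. The 7 duct markers summed to 157 CPM in siSRSF1, 216 in siSRSF2 and 223 in siNC, nearly all from Spp1 and Krt7. The 9 markers of the other islet cells summed to 165 CPM in siSRSF1, 154 in siSRSF2 and 141 in siNC, nearly all from Gcg and Sst, and 2 of them were at 0 throughout. The 5 endothelial markers summed to at most 8.28 CPM. Of 10 acinar markers 7 were at 0 in every library and the sums were at most 0.394 CPM. The 7 fibroblast markers summed to at most 0.898 CPM, with 3 of them at 0 throughout. The 7 immune markers summed to 16.3 CPM in siSRSF1, 3.95 in siSRSF2 and 4.41 in siNC, nearly all from Cd68, and 3 of them were at 0 throughout. The part of these differences in the results was not tested.

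The 115 higher genes took 0.858% of all reads in siSRSF1 and 0.919% in siSRSF2, against 0.376% in siNC. Most of this came from Cck and Pcsk1n, and without them the shares were 0.225% in siSRSF1 and 0.214% in siSRSF2, against 0.0776% in siNC. Ordered by the mean ratio, which is the mean CPM of both siRNA libraries over the siNC CPM, the higher genes ran from 2.09 to 13.7 with a median of 3.10. The mean ratio was at least 5 in 19 genes, between 3 and 5 in 44 and under 3 in 52. The set is uneven in depth, since 53 of the 115 had under 20 siNC reads and entered the comparison only through the siRNA libraries, where they were high. Only 25 had at least 100 siNC reads, and 56 had at least 100 reads in their highest library.

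Either siRNA alone gave longer lists, which share the siNC library. In siSRSF1, 284 genes (2.42%) were higher and 154 (1.31%) lower by the same rule, and in siSRSF2, 330 (2.81%) were higher and 124 (1.05%) lower. Set directly against each other, the siRNA libraries gave levels within 1.5-fold for 92 of the 115 higher genes. The counting interval of siSRSF1 over siSRSF2 included 1 for 80 of them, lay above 1 for 14 and below 1 for 21. Both levels had to pass the same limit over siNC, so such closeness follows in part from the calls. The same shares over all compared genes are not given, and agreement between the siRNAs is not read from these counts. Among the abundant genes, Hnrnpab (1.47), Imp3 (1.52) and Insm1 (1.13) stood above 1, and Pcsk1n (0.675), Nenf (0.789) and Bbc3 (0.752) below it. The widest gaps were a ratio of siSRSF1 over siSRSF2 of 2.62 for Ptpn14 and of 0.455 for Prr7, both of low count.

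**Figure D1:**
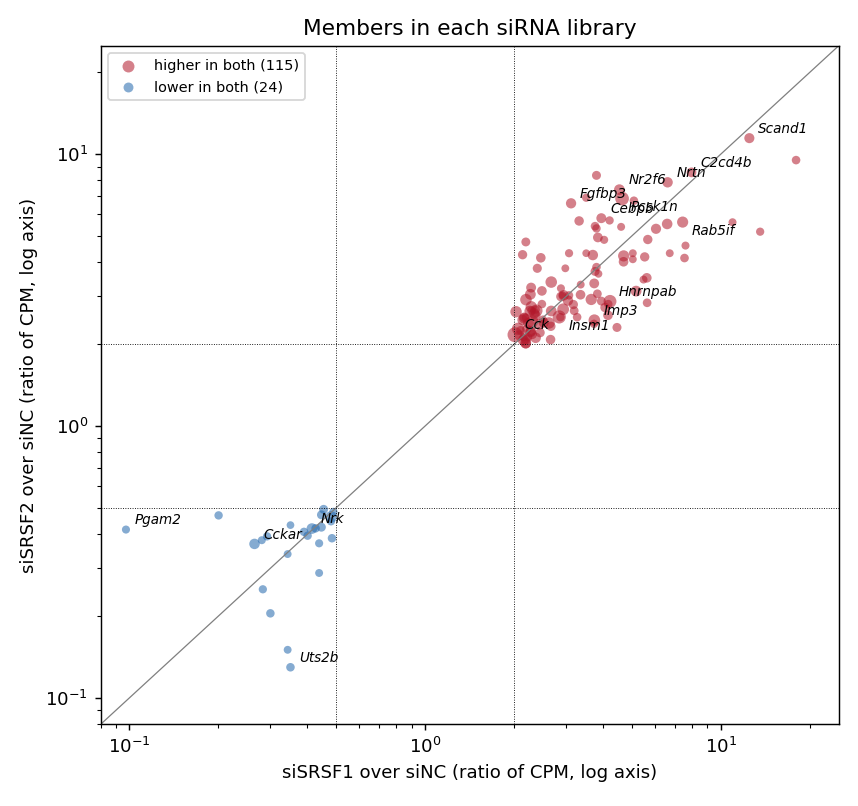
Ratio of siSRSF1 CPM to siNC CPM (horizontal, log axis) against ratio of siSRSF2 CPM to siNC CPM (vertical, log axis) for the 115 higher (red) and 24 lower (blue) genes. Larger points have more reads in their highest library, dotted lines mark ratios of 0.5 and 2, the grey diagonal marks equal ratios, and the empty middle and corners follow from the calls because both axes share siNC. Scand1 lies near 12 on both axes, while Pcsk1n lies above the diagonal and Hnrnpab below it.

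The members were grouped by hand from what their products are known to do, with their values in view. All compared genes were not grouped in this way, so no background share stands beside the group sizes. These sizes only order the description, and no theme is read from them. Members with fewer than 100 reads in every library are named only to account for the set. Genes of secreted proteins and peptides gave 10 higher members, the most abundant one among them. Cck (ENSMUSG00000032532, GRCm38 chr9:121489824-121495694) is the precursor of the peptide hormone cholecystokinin. It had 83276 reads (5752 CPM) in siSRSF1 and 90798 (6184 CPM) in siSRSF2, against 36228 (2855 CPM) in siNC. Per transcript length, this was 4408 FPKM (fragments scaled to length and library total) in siSRSF1 and 4739 in siSRSF2, against 2188 in siNC, the most of any higher member. The siSRSF2 library was slightly further above the control, with ratios of 2.01 (1.99 to 2.04) in siSRSF1 and 2.17 (2.14 to 2.19) in siSRSF2. A correction for transcript GC content put the siSRSF1 ratio at 1.83 and ended the call.

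Pcsk1n (ENSMUSG00000039278, chrX:7919822-7924410) encodes proSAAS, a granule protein whose fragment inhibits prohormone convertase 1. It had 8388 reads (579 CPM) in siSRSF1 and 12596 (858 CPM) in siSRSF2, against 1586 (125 CPM) in siNC. The ratio was 4.63 (4.39 to 4.89) in siSRSF1 and 6.86 (6.51 to 7.24) in siSRSF2, so the 2 siRNA libraries also stood apart from each other. Its exons share bases with the opposite-strand gene Eras, which had no read in the siRNA libraries and 2 in siNC. The convertase gene Pcsk1 had 239 FPKM in siSRSF1 and 227 in siSRSF2, against 265 in siNC, and was in neither the 2-fold nor the 1.5-fold set. Pcsk2, the other main convertase of islet granules, was below it, with 18942 reads in siSRSF1 and 19367 in siSRSF2, against 25775 in siNC. Its ratios were 0.644 (0.632 to 0.656) in siSRSF1 and 0.649 (0.637 to 0.662) in siSRSF2, outside the 2-fold rule.

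Nrtn encodes neurturin, a ligand of the GDNF family. It had 196 reads in siSRSF1 and 237 in siSRSF2, against 26 in siNC, ratios of 6.61 (4.38 to 10.4) in siSRSF1 and 7.88 (5.24 to 12.3) in siSRSF2. GC correction, at a transcript GC content of 72.8%, put these at 3.63 in siSRSF1 and 4.19 in siSRSF2, still called. Fgfbp3, a binding protein of fibroblast growth factors, was further from the control in siSRSF2, with 96 reads in siSRSF1 and 206 in siSRSF2, against 27 in siNC. Nenf, the secreted factor neudesin, had 652 reads in siSRSF1 and 838 in siSRSF2, against 214 in siNC. Vstm2l, a secreted immunoglobulin-domain protein, had 1063 reads in siSRSF1 and 989 in siSRSF2, against 318 in siNC. With GC correction the ratios of Vstm2l were 1.84 in siSRSF1 and 1.68 in siSRSF2, and the call was lost. The other secreted members were of low count: Rspo1, a Wnt pathway enhancer (79 reads in siSRSF1 and 93 in siSRSF2, against 32 in siNC), Areg, an EGF receptor ligand, and Metrn, each of these last with at most 39 reads in any library.

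**Figure D2:**
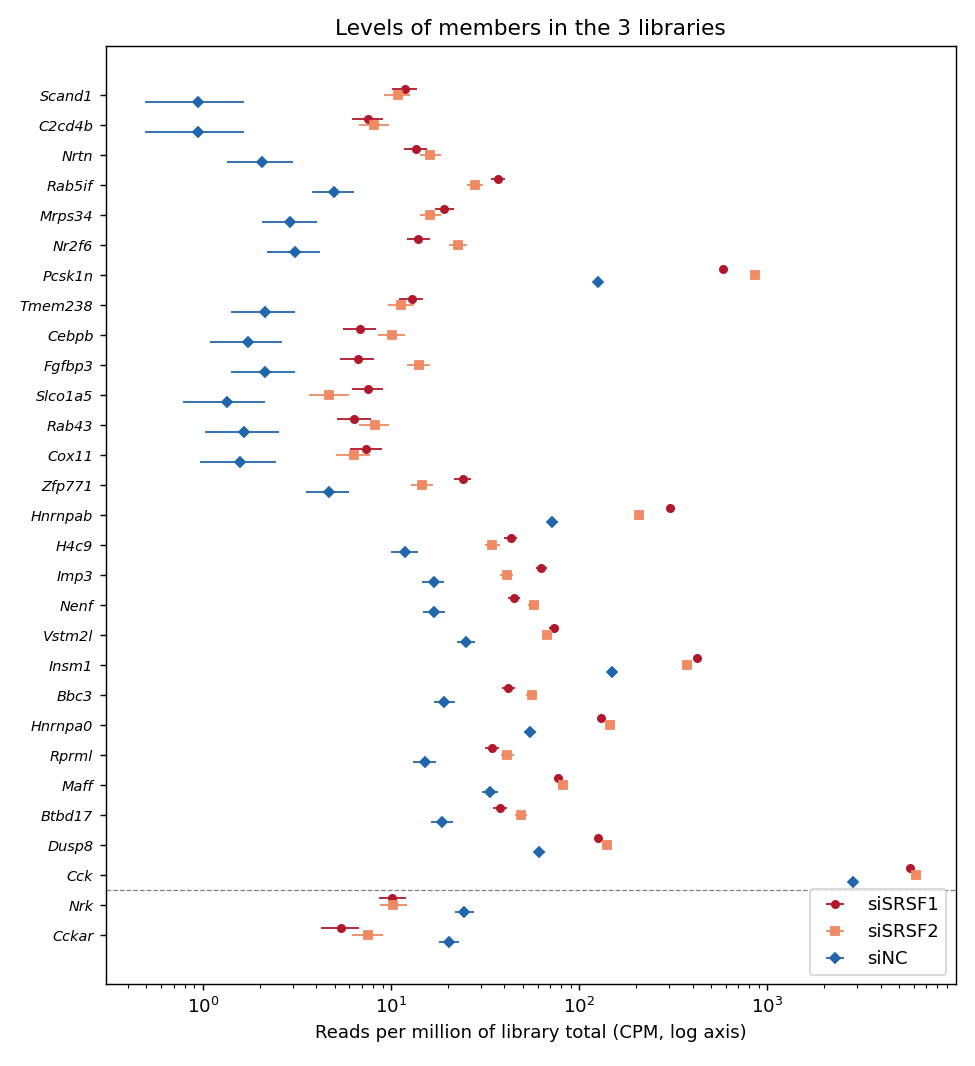
Level of the called members chosen by ratio or by level among those with at least 100 reads, as CPM on a log axis, in siSRSF1 (circles), siSRSF2 (squares) and siNC (diamonds), with exact 95% counting intervals as bars. Genes run down by mean ratio from Scand1 to Cck, and the genes under the dashed line are lower than siNC. Cck lies at 5752 CPM in siSRSF1, 6184 in siSRSF2 and 2855 in siNC.

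Among 15 higher transcription factor and nuclear protein genes, Insm1 was the most abundant. INSM1 is a zinc finger factor of endocrine progenitors and beta cells, encoded by 1 exon (ENSMUSG00000068154, chr2:146221921-146225020). Insm1 had 6103 reads in siSRSF1 and 5486 in siSRSF2, against 1882 in siNC, ratios of 2.84 (2.70 to 2.99) in siSRSF1 and 2.52 (2.39 to 2.66) in siSRSF2. It stayed called with GC correction, at 2.27 in siSRSF1 and 2.08 in siSRSF2. Scand1 (ENSMUSG00000046229, chr2:156311846-156312747), which encodes a SCAN domain protein, had the largest ratios among members with at least 100 reads. It had 171 reads in siSRSF1 and 159 in siSRSF2, against 12 in siNC, ratios of 12.5 (6.97 to 24.6) in siSRSF1 and 11.5 (6.38 to 22.6) in siSRSF2. The intervals are wide because the control value is 12 reads, and GC correction gave 8.06 in siSRSF1 and 7.39 in siSRSF2.

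Nr2f6, an orphan nuclear receptor, had 202 reads in siSRSF1 and 334 in siSRSF2, against 39 in siNC. The bZIP factor gene Cebpb had 99 reads in siSRSF1 and 148 in siSRSF2, against 22 in siNC, and its relative Cebpd had 59 in siSRSF1 and 101 in siSRSF2, against 21 in siNC. All 3 were further from the control in siSRSF2 than in siSRSF1. Maff, a small MAF bZIP factor induced by stress, had 1121 reads in siSRSF1 and 1196 in siSRSF2, against 426 in siNC, ratios of 2.31 (2.06 to 2.58) in siSRSF1 and 2.43 (2.17 to 2.72) in siSRSF2. Zfp771, a zinc finger gene, leaned to siSRSF1, with 348 reads there and 214 in siSRSF2, against 59 in siNC, and GC correction put its siSRSF2 ratio at the limit and ended the call. Nkx6-2, a homeodomain relative of Nkx6-1, had 111 reads in siSRSF1 and 102 in siSRSF2, against 29 in siNC. Sap30 and Sap30l, subunits of the SIN3 histone deacetylase complex, and Gtf3a, the factor for 5S ribosomal RNA transcription, had mean ratios of 2.11, 2.45 and 2.98. Adnp, Zfp773, Nfe2l3 and Ier5l complete the group at 66 reads or fewer in any library.

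RNA-binding and ribosome assembly genes gave 6 higher members. Hnrnpab (ENSMUSG00000020358, chr11:51600100-51606847) encodes a nuclear ribonucleoprotein that binds pre-mRNA and mRNA. It had 4391 reads (303 CPM) in siSRSF1 and 3033 (207 CPM) in siSRSF2, against 912 (71.9 CPM) in siNC. Its ratios were 4.22 (3.93 to 4.54) in siSRSF1 and 2.87 (2.67 to 3.10) in siSRSF2, and GC correction did not move them. Hnrnpa0, an intronless relative that binds AU-rich elements, had 1886 reads in siSRSF1 and 2137 in siSRSF2, against 695 in siNC, ratios of 2.38 (2.18 to 2.60) in siSRSF1 and 2.66 (2.44 to 2.90) in siSRSF2. These were the only called genes among 47 compared hnRNPs and other splicing regulators, whose median log2 mean ratio was 0.08 beside 0.04 for all compared genes. Imp3, a protein of the U3 small nucleolar ribonucleoprotein needed for ribosomal RNA processing, had 908 reads in siSRSF1 and 604 in siSRSF2, against 213 in siNC. Znhit2, Sac3d1 and Cpsf4l had mean ratios of 2.4, 2.24 and 3.05, and GC correction ended the calls of Znhit2 and Sac3d1. The 12 SR proteins, 16 SR-related proteins and SR kinases and 48 core spliceosome genes compared held no member, from which nothing is read in lists this short at background shares of 0.978% higher and 0.204% lower.

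The sequences around the start sites of Pcsk1n, Cck and Hnrnpab are shown because these 3 are the most abundant members with an entry among the RefSeq promoters. Insm1 and Cckar had no entry. Each is 300 bases, from 250 before to 50 after the RefSeq start site, on GRCm38.p6. The Pcsk1n window is chrX:7919572-7919871 (plus strand), the Cck window chr9:121495645-121495944 (minus strand) and the Hnrnpab window chr11:51606832-51607131 (minus strand). Capitals mark matches, on either strand, to the AP-1 motif TGANTCA, the SP1 box GGGCGG, the CRE TGACGTCA, its core TGACG, which lies within it, the CCAAT box, the TATA box TATAAA and the E-box CACGTG.
Pcsk1n: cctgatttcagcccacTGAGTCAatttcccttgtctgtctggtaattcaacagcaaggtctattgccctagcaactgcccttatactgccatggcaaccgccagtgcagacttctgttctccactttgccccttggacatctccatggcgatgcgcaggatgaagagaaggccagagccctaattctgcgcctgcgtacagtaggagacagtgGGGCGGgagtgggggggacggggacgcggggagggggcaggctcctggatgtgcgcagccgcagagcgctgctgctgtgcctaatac
Cck: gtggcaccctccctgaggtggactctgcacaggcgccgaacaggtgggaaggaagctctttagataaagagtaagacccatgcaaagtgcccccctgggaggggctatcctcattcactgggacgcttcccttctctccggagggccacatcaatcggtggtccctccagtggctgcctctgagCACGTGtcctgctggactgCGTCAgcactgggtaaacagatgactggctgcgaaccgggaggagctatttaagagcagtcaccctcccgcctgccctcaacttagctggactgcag
Hnrnpab: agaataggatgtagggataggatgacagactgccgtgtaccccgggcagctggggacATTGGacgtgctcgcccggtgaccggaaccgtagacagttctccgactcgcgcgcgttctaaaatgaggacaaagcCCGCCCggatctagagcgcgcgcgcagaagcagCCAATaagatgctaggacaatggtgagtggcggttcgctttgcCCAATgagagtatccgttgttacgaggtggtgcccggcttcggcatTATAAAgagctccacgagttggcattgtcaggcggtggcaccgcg

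The 3 windows hold different matches. Cck has an E-box and the CRE core, which lies at position -47 from the start site. Pcsk1n has an AP-1 match and an SP1 box, and Hnrnpab has an SP1 box, 3 CCAAT boxes and TATAAA. The TATAAA begins 6 bases into the transcript of the RefSeq model. For Hnrnpab, however, the RefSeq start site lies 34 bases upstream of the gene start given with the counts. Measured from that gene start, the TATAAA lies upstream of the transcript. Among the higher genes with a promoter entry, TATAAA occurred in 13 of 91 (14.3%) and the CCAAT box in 29 (31.9%). Among the lower genes TATAAA occurred in 3 of 19 (15.8%) and the CCAAT box in 14 (73.7%), and among all compared genes TATAAA occurred in 605 of 9417 (6.43%) and the CCAAT box in 3720 (39.5%). The SP1 box was found in 60.4% of the higher, 42.1% of the lower and 66.7% of all compared promoters, and the CRE core in 29.7% of the higher, 26.3% of the lower and 33.2% of all. AP-1 was found in 5.49% of the higher, 10.5% of the lower and 4.28% of all, the full CRE in 2.20%, 5.26% and 3.56% of the same sets, and the E-box in 4.40%, 10.5% and 10.3%. Such matches are descriptions of the letters in these windows. The median GC content of the windows was 59.3% for the higher genes, 54.7% for the lower genes and 61.3% for all.

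Mitochondrial proteins gave 9 higher members, none of them single-exon. Mrps34, of the small subunit of the mitochondrial ribosome, had 278 reads in siSRSF1 and 237 in siSRSF2, against 37 in siNC, ratios of 6.58 (4.66 to 9.55) in siSRSF1 and 5.54 (3.90 to 8.05) in siSRSF2. It shares exon bases with the opposite-strand gene Mapk8ip3, which had 4375 reads in siSRSF1 and 3912 in siSRSF2, against 2949 in siNC. Without strand, reads in the shared bases cannot be told apart. Cox11, needed to insert copper into cytochrome c oxidase, had 107 reads in siSRSF1 and 93 in siSRSF2, against 20 in siNC. Fdx1, a ferredoxin, Ndufaf6, an assembly factor of complex I, and Mrps24, of the small mitochondrial ribosomal subunit, had mean ratios of 2.46, 2.30 and 2.46. Rbfa and Malsu1, ribosome assembly factors of the mitochondrion, stood at 2.32 and 2.10, Atp5o, a subunit of ATP synthase, at 2.92, and Endog, a mitochondrial nuclease, at 5.26. The Atp5o value (1.66 to 5.55) rests on 51 reads in siSRSF1 and 43 in siSRSF2, against 14 in siNC. Atp5o also shares exon bases on the same strand with another annotated gene of the same name, so its value is uncertain. GC correction ended the call of Rbfa. Of 65 compared mitochondrial ribosomal proteins, 2 were called (Mrps24 and Mrps34), with a list median log2 of 0.13, and of 73 nuclear respiratory chain genes 1 was called (Atp5o), with the same median. With 0.978% of all compared genes higher, these counts of 2 and 1 are not read as results about the lists.

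Signalling enzymes and adaptors gave 12 higher members. Dusp8, a phosphatase of stress-activated MAP kinases, had 1830 reads in siSRSF1 and 2051 in siSRSF2, against 778 in siNC. Bbc3, which encodes the BH3-only cell death protein PUMA, had 608 reads in siSRSF1 and 820 in siSRSF2, against 243 in siNC, ratios of 2.19 (1.89 to 2.56) in siSRSF1 and 2.92 (2.52 to 3.38) in siSRSF2. With GC correction the siSRSF1 ratios were 1.80 for Dusp8 and 1.58 for Bbc3, which ended both calls. Bax, another cell death gene, had 481 reads in siSRSF1 and 449 in siSRSF2, against 240 in siNC, outside the 2-fold rule. Bbc3 was the 1 called gene of 14 compared BCL2 family members, whose median log2 mean ratio was -0.0049, and of 24 cell cycle inhibitor and p53 target genes, at 0.11. A count of 1 in lists this short is a description, beside 0.978% of all compared genes. Amotl2, an angiomotin of the Hippo pathway, Ppp1r3f, a regulatory subunit of protein phosphatase, and Dact3, a Wnt pathway inhibitor, had mean ratios of 2.76, 2.24 and 2.14, of which Dact3 lost its call with GC correction. Pdxp and Ptpn14, both phosphatases, had 2 siNC reads each, and their mean ratios of 13.7 (3.64 to 116) for Pdxp and 9.38 (2.44 to 79.7) for Ptpn14 rest on those. The kinases Pak7, Mapkapk5 and Map3k6, the phosphatase Ppef2 and Pik3ip1, an inhibitor of PI3-kinase, had mean ratios from 3.34 to 5.52 at no more than 48 reads in any library, the last of these resting on 3 siNC reads (1.75 to 27.9).

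Transport and membrane traffic gave 10 higher members. Rab5if, a partner of the endosomal GTPase RAB5, had 534 reads in siSRSF1 and 410 in siSRSF2, against 63 in siNC, ratios of 7.43 (5.71 to 9.81) in siSRSF1 and 5.62 (4.31 to 7.45) in siSRSF2, both kept with GC correction. Slco1a5, an organic anion transporter, had 109 reads in siSRSF1 and 69 in siSRSF2, against 17 in siNC, although near-identical Slco1a genes could share its reads. Rab43, a Golgi GTPase, had 92 reads in siSRSF1 and 120 in siSRSF2, against 21 in siNC. Map1lc3a, an autophagosome protein, had a mean ratio of 2.31, which GC correction put under the rule. The pumps Abcb11 and Abcc3, the cation-chloride cotransporters Slc12a7 and Slc12a8, the vesicle priming gene Unc13c and the tetraspanin gene Tspan9 had mean ratios between 2.33 and 4.24 at 81 reads or fewer.

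Receptors and adhesion genes gave 7 higher members. Galr3, a receptor for the neuropeptide galanin, had 326 reads in siSRSF1 and 328 in siSRSF2, against 107 in siNC. It shares exon bases on the same strand with Gcat, and GC correction put both its ratios at 1.81. Itgb8, an integrin subunit, had 259 reads in siSRSF1 and 353 in siSRSF2, against 100 in siNC. P2rx7, an ATP-gated channel, Gpr179, Itga2, Notch4 and Sema4f had 43 reads or fewer in every library. The enzyme genes Nudt6, Pcbd2, Hyal1 and Naaladl1 had mean ratios of 5.91, 3.39, 3.05 and 2.18 at no more than 20 siNC reads.

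The 3 higher histone genes each have 1 exon. H4c9, a replication-dependent histone H4 gene, had 624 reads in siSRSF1 and 507 in siSRSF2, against 150 in siNC. H1f10, a linker histone, had 85 reads in siSRSF1 and 109 in siSRSF2, against 30 in siNC. H3c3 had 25 reads in siSRSF1 and 13 in siSRSF2, against 2 in siNC, a mean ratio of 8.29 (2.14 to 70.7). Of 46 replication-dependent histone genes in the table, 20 had enough reads to be compared. Of these 20, 2 were called, beside 0.978% of all compared genes, and a count of 2 is only a description. Their median log2 was 1.05 in siSRSF1 and 0.49 in siSRSF2, beside 0.00 in siSRSF1 and 0.06 in siSRSF2 for all compared genes. With GC correction the histone medians were 1.06 in siSRSF1 and 0.31 in siSRSF2. Histone copies are nearly identical and the sources used here do not say how shared reads were counted, so single histone values are uncertain.

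The remaining 39 higher genes fall in no group. C2cd4b and C2cd4a, related nuclear calcium-dependent domain genes known from pancreatic islets, lie 69559 bases apart on chromosome 9. C2cd4b had 109 reads in siSRSF1 and 119 in siSRSF2, against 12 in siNC, a mean ratio of 8.27 (4.64 to 16.2), and C2cd4a had 97 in siSRSF1 and 77 in siSRSF2, against 32 in siNC. GC correction kept C2cd4b and ended the call of C2cd4a. Tmem238, a small membrane protein gene, had 186 reads in siSRSF1 and 166 in siSRSF2, against 27 in siNC. Btbd17, Rprml, Abhd15, Fbxw4 and Inafm1 were among the deeper members, with 722, 607, 422, 262 and 401 reads in their highest library, and all 5 lost their calls with GC correction. Inafm1 lies 34776 bases from Bbc3 on chromosome 7, and Sac3d1, Naaladl1 and Znhit2 lie within 53528 bases of each other on chromosome 19.

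Oscp1, Trp53rkb and Tmem160 had mean ratios of 2.12, 3.54 and 2.97 at 120 or more reads in both siRNA libraries. Specc1, Ttll11, Tmem158, Apold1, Prr7, Dbndd2, Lca5l, Armc2, Ttc9b and Ccdc73 had mean ratios from 2.24 to 6.08. Samd15, Iqank1, Tmem221, Krtap17-1, Dtna, Cebpzos, Nhlrc1 and Zmynd12 had no more than 32 reads in any library, and Zmynd12 had 3 in siNC, a ratio of 6.10 (1.95 to 30.7). The last 10 carry only predicted or clone names. Of these, 0610012G03Rik had 573 reads in siSRSF1 and 523 in siSRSF2, against 107 in siNC, and CAAA01118383.1 had 716 in siSRSF1 and 662 in siSRSF2, against 239 in siNC. The others were 1700056E22Rik, 1110065P20Rik, 4930432K21Rik, AC168977.1, 1700067K01Rik, Gm10767, 1700007K13Rik and Gm13889.

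Genes with few exons held a larger share of higher members. Of the 113 higher genes with an annotation, 18 (15.9%) had 1 exon, beside 2.05% of 11743 annotated compared genes, and 44 (38.9%) had up to 3 exons, beside 10.9%. Seen from the classes, 7.47% of the 241 single-exon genes were higher in both, beside 2.50% of genes with 2 exons, 2.49% with 3, 1.49% with 4 to 5 and 0.482% with 6 to 10. Of the 24 lower genes, which are 0.204% of all compared genes, 2 had up to 3 exons and none had 1, a number too small to compare between the exon classes. The single-exon members not yet given with their exon number are Cebpb, Cebpd, Ier5l, Imp3, Tmem158, Rprml, Inafm1, Znhit2, Nhlrc1, Krtap17-1, Gm13889, 1700056E22Rik and 0610012G03Rik.

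The higher genes were also rich in GC and short. Their median transcript GC content was 56.3%, beside 49.3% for the lower genes and 49.9% for all, and their median length was 2294 bases, beside 2774 for the lower genes and 4650 for all. Of the 1175 genes with the highest GC content, 45 were higher members (3.83%), and of the 1175 with the lowest, 2 (0.170%). With the compared genes in 3 equal groups by GC content, 16 of 112 single-exon genes (14.3%) in the GC-richest group were higher, beside 56 of 3802 genes with more exons (1.47%). In the GC-poorest group, 0 of 69 single-exon genes were, beside 13 of 3846 (0.338%). By the rule of 3, a count of 0 in 69 allows a share of up to 4.35%. That limit is only a rough guide, because it takes genes as independent. With 3 equal groups by length, the shares in the shortest were 9.71% of 175 single-exon genes and 1.58% of the others. The higher genes also had a median of 21 siNC reads, beside 450 for all. That follows in part from the calls, since siNC is the denominator of both ratios and 53 members had under 20 siNC reads. It is therefore not read as a trait of the members. With 3 equal groups by mean CPM of the libraries, 11 of 151 single-exon genes (7.28%) in the lowest were higher, beside 82 of 3758 others (2.18%). The middle group gave 5 of 55 (9.09%) beside 8 of 3862 (0.207%), and the highest 2 of 35 (5.71%) beside 5 of 3882 (0.129%).

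Across all compared genes of the GC-richest group, the median log2 mean ratio was 0.52 for single-exon genes and 0.13 for the rest, and after GC correction it was 0.33 and 0.02. The gap was absent in the GC-poorest group, at -0.07 and -0.04, or 0.01 and 0.03 after correction. The middle group gave 0.12 and 0.03, or 0.14 and 0.03 after correction. With all 3 groups together, the medians were 0.16 and 0.04, or 0.13 and 0.03 after correction. GC correction kept 86 of the 113 annotated higher genes and 23 of the 24 lower ones. Beside the losses given with their genes, Gm13889, H1f10, Ier5l, Naaladl1, Notch4, Prr7, Rspo1, Sap30l, Sema4f and Slc12a7 lost their calls. Level, length, GC content and exon number move together across genes, and their separate parts in the calls were not tested. Genes are not independent replicates, so these shares describe the 3 libraries.

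**Figure D3:**
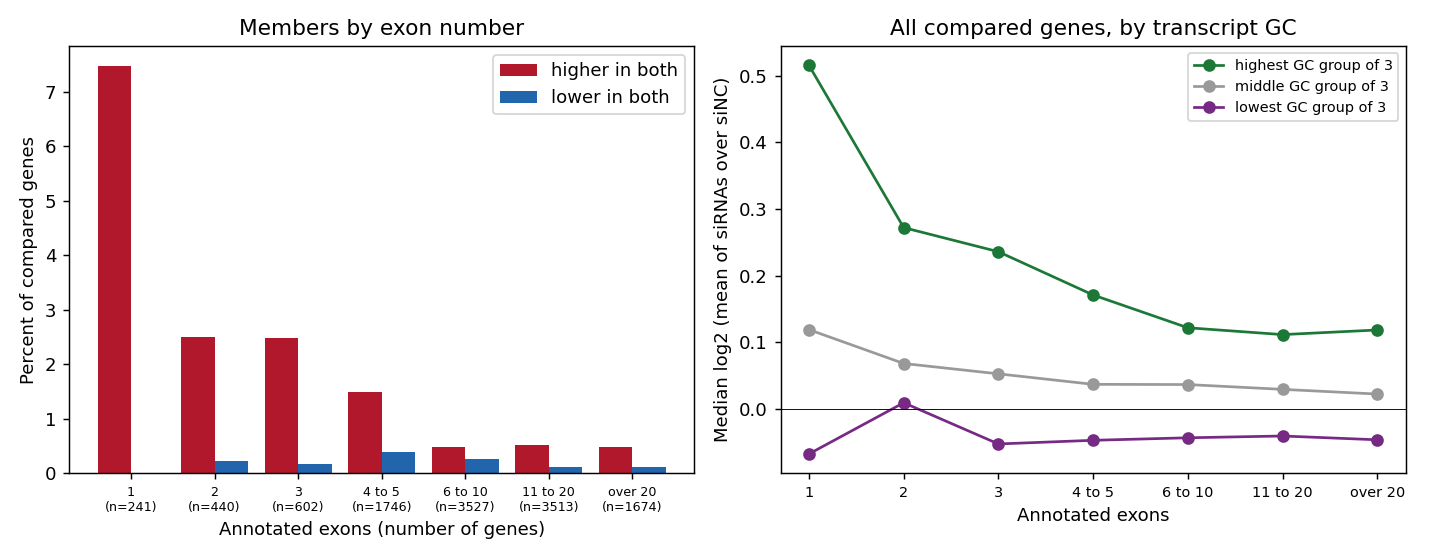
Left, percent of compared genes that were higher (red) or lower (blue) in both siRNA libraries, by number of annotated exons, with the number of genes under each class. Right, median log2 of the mean siRNA CPM over siNC CPM of all compared genes by exon number, within the highest, middle and lowest of 3 equal groups by transcript GC content. The share of higher genes is 7.47% for 1 exon and 0.482% for 6 to 10 exons, and the single-exon median is 0.52 in the GC-richest group and -0.07 in the lowest.

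The 24 lower genes were mostly of low count. Their mean ratios ran from 0.240 to 0.486 with a median of 0.395, and in 17 of them both siRNA libraries had under 20 reads. They summed to 0.00745% of reads in siSRSF1 and 0.00753% in siSRSF2, against 0.0179% in siNC. Cckar (ENSMUSG00000029193, chr5:53697776-53707705) encodes the receptor through which cholecystokinin acts on pancreatic cells. It had 78 reads in siSRSF1 and 110 in siSRSF2, against 258 in siNC. Its ratios were 0.265 (0.203 to 0.343) in siSRSF1 and 0.368 (0.292 to 0.462) in siSRSF2, kept with GC correction. The receptor gene was lower in the libraries where Cck was higher, although GC correction ended the call of Cck. A link between the Cck and Cckar values was not tested. Nrk, a kinase related to NIK, had 147 reads in siSRSF1 and 151 in siSRSF2, against 311 in siNC, ratios of 0.414 (0.338 to 0.506) in siSRSF1 and 0.420 (0.343 to 0.511) in siSRSF2. Gm9195, a predicted gene named after its values were seen, had 539 reads in siSRSF1 and 526 in siSRSF2, against 982 in siNC.

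These 3 were the lower members with at least 100 reads in any library, and the other 21 had between 20 and 57 siNC reads. Uts2b, the precursor of a urotensin peptide, had 16 reads in siSRSF1 and 6 in siSRSF2, against 40 in siNC. Pgam2, the muscle phosphoglycerate mutase, had 3 reads in siSRSF1 and 13 in siSRSF2, against 27 in siNC, ratios of 0.0974 in siSRSF1 and 0.416 in siSRSF2. The other secreted members were Ambp and Spon1, and the other receptor and immune genes were Tlr5, a flagellin receptor, and Dok3, an adaptor. Kcnab1, a potassium channel subunit, Slc24a5, a cation exchanger, and Tmc4 were the lower transport genes, with mean ratios of 0.252, 0.423 and 0.435. Mest, an imprinted gene, Car15, a carbonic anhydrase, Lyrm7, an assembly factor of complex III, and Trip6, a LIM domain protein, stood at 0.247, 0.391, 0.435 and 0.398. The zinc finger genes Zfp85 and Zfp658, the meiotic gene Rec114, Rnf225, Klhl30, Serpinb1a, Gm8281 and Gm10130 complete the set, and GC correction ended the call of Serpinb1a.

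Of 998 compared genes in 35 lists of pathways and functions, 20 were higher members and 1 (Cckar) was a lower one, beside shares of 0.978% and 0.204% of all compared genes. Lists of this size hold few called genes at such shares, so the counts of each list are given as descriptions. The list of intronless transcription factor and signalling genes held 5 of 26 compared (Cebpb, Cebpd, Dusp8, Ier5l and Insm1), with a median log2 of 0.43 in siSRSF1 and 0.77 in siSRSF2, beside 0.00 in siSRSF1 and 0.06 in siSRSF2 for all compared genes. Dusp8 is in that list although the annotation gives it 7 exons. Secreted growth factors held 3 of 20 (Areg, Fgfbp3 and Nrtn), with medians of 0.20 in siSRSF1 and 0.32 in siSRSF2. Immediate early genes held 2 of 33 (Ier5l and Maff), at 0.12 in siSRSF1 and 0.54 in siSRSF2, and ATF4 and amino acid stress genes 1 of 27 (Cebpb), at 0.06 in siSRSF1 and 0.76 in siSRSF2. These last 2 lists therefore stood near all genes in siSRSF1 and above them in siSRSF2. GC correction lowered several of these medians: for the intronless list to 0.31 in siSRSF1 and 0.48 in siSRSF2, for immediate early genes to -0.02 in siSRSF1 and 0.30 in siSRSF2, and for secreted growth factors to 0.03 in siSRSF1, with 0.33 in siSRSF2. For the ATF4 list it gave -0.02 in siSRSF1 and 0.66 in siSRSF2.

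Beta-cell transcription factors held 2 of 23 (Insm1 and Nkx6-2), at 0.08 in siSRSF1 and 0.25 in siSRSF2, and islet and neuronal peptide hormones 1 of 12 (Cck). Prohormone processing and granins held Pcsk1n alone among 27, and their medians were -0.15 in siSRSF1 and -0.23 in siSRSF2. The list that holds Pcsk1n thus lay below all genes in both libraries. Lists with no member included 58 cytosolic ribosomal proteins, at -0.17 in siSRSF1 and -0.25 in siSRSF2, and 43 genes of transport from the endoplasmic reticulum to the Golgi, at -0.18 in siSRSF1 and -0.34 in siSRSF2. Cholesterol and fatty acid synthesis, with 31 genes and no member, was at 0.25 in siSRSF1 and -0.29 in siSRSF2, and the G2 and mitosis list, with 36 and none, at 0.04 in siSRSF1 and -0.38 in siSRSF2. In both lists the siSRSF1 median was above 0 and the siSRSF2 median below it, also with GC correction. That correction put the beta-cell factors at 0.10 in siSRSF1 and 0.13 in siSRSF2, and the G2 and mitosis list at 0.10 in siSRSF1.

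**Figure D4:**
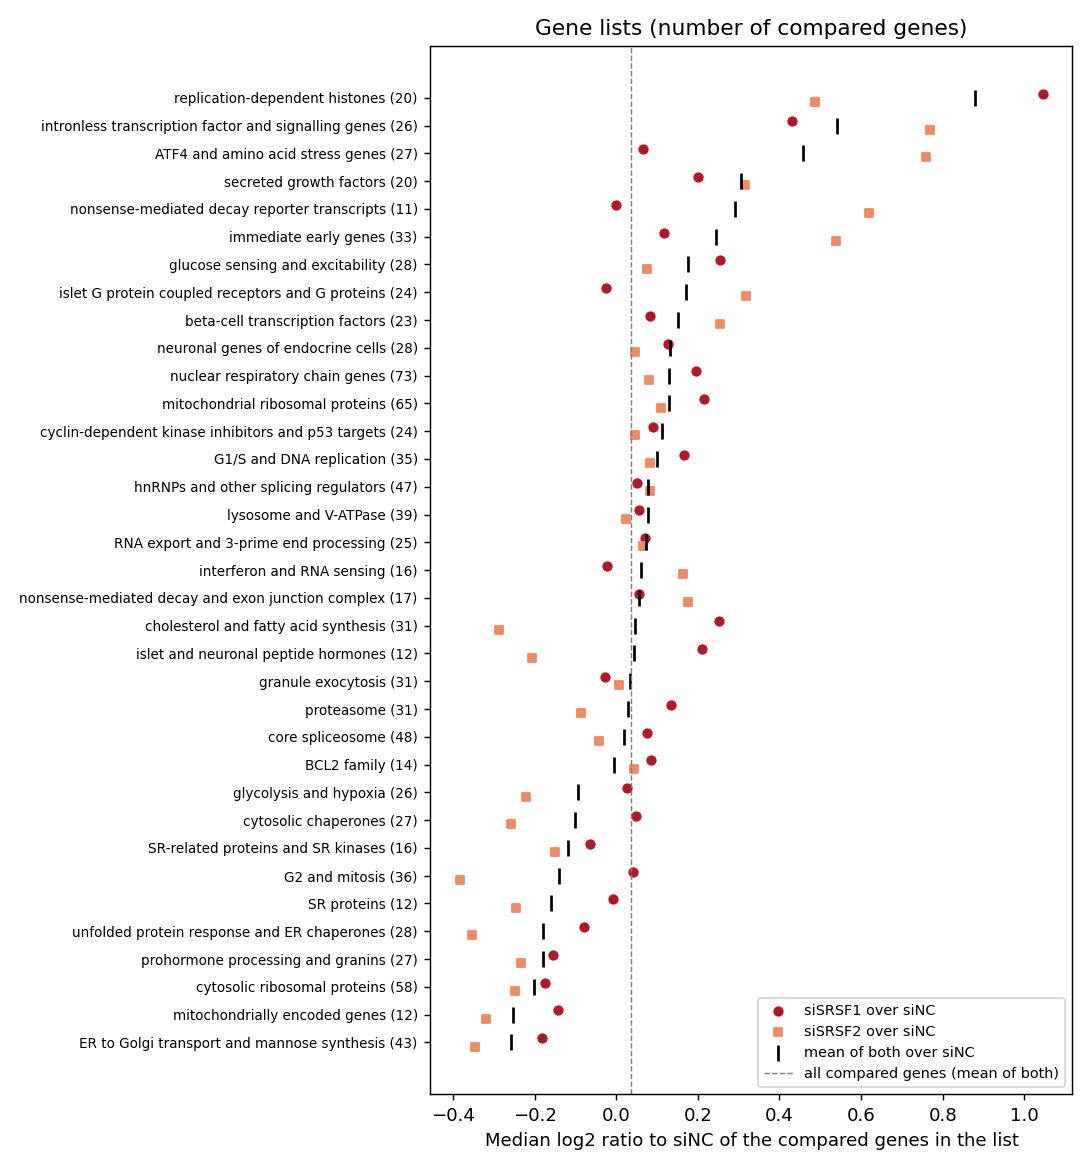
Median log2 ratio to siNC of the compared genes in each of 35 lists, for siSRSF1 (circles), siSRSF2 (squares) and the mean of both (vertical ticks), with the number of compared genes in brackets and the dashed line at the mean-ratio median of all compared genes, 0.04. Histone and intronless transcription factor lists lie at the top, and the list of transport from the endoplasmic reticulum to the Golgi at the bottom, at -0.26 for the mean.

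A rule of 1.5-fold in both libraries added abundant genes that the 2-fold rule leaves out. It gave 317 higher genes (2.7%) and 88 lower ones (0.749%), with all of the 139 members among them. Mafa, a single-exon activator of insulin transcription, had 12807 reads in siSRSF1 and 10309 in siSRSF2, against 4555 in siNC, ratios of 2.46 (2.38 to 2.55) in siSRSF1 and 1.96 (1.89 to 2.03) in siSRSF2. Nkx6-1, a homeodomain factor of beta cells, had 6850 reads in siSRSF1 and 7902 in siSRSF2, against 3165 in siNC, ratios of 1.90 (1.82 to 1.98) in siSRSF1 and 2.16 (2.07 to 2.25) in siSRSF2. Each therefore passed 2-fold with a different siRNA, without GC correction. That correction moved the mean ratio of Mafa from 2.21 to 1.62 and that of Nkx6-1 from 2.03 to 1.80. With Insm1 and Nkx6-2, Mafa and Nkx6-1 were the 4 of 23 compared beta-cell transcription factors higher by the 1.5-fold rule. Pdx1, another of them, was above the control by less, at 1.26 (1.22 to 1.31) in siSRSF1 and 1.13 (1.09 to 1.17) in siSRSF2. Ins1 was at 1.26 in siSRSF1 and 1.48 in siSRSF2, and Ins2 at 1.01 in siSRSF1 and 1.40 in siSRSF2.

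At the same rule, by which 2.7% of all compared genes were higher, 5 of 73 compared nuclear respiratory chain genes were higher. Cox5a, Cox5b, Cox8a and Uqcrfs1 joined Atp5o, itself of low count. Of 65 compared mitochondrial ribosomal genes 6 were higher, as 4 joined Mrps24 and Mrps34. These counts in short lists are descriptions, and no theme is read from them. Uqcrfs1, the Rieske protein of complex III, had 2288 reads in siSRSF1 and 2112 in siSRSF2, against 1056 in siNC. Srsf9 was the 1 gene of 12 compared SR proteins to pass, with 800 reads in siSRSF1 and 888 in siSRSF2, against 445 in siNC. Atf3, Jund and Ier5 joined the immediate early genes, of which 5 of 33 compared were higher. Among lower genes, Tmsb4x, which encodes thymosin beta 4, had 3808 reads in siSRSF1 and 4634 in siSRSF2, against 6938 in siNC. Spcs3, a signal peptidase subunit, had 2036 reads in siSRSF1 and 2357 in siSRSF2, against 3290 in siNC, and Tph1, the serotonin-making enzyme, had 400 in siSRSF1 and 582 in siSRSF2, against 764 in siNC. Pcsk2, Spcs3 and Pcsk1n belong to the same list, with Pcsk1n above the control and the others below it.

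At the 2-fold limit itself, the members just inside were Cck, Malsu1 and Abhd15, whose lower ratios were 2.01, 2.01 and 2.02, and Tmc4, Klhl30 and Zfp658, whose higher ratios were 0.484, 0.490 and 0.494. Scaling by TMM put the siSRSF2 ratios of Malsu1 and Abhd15 at 1.95 and 1.96, and median-of-ratios at 1.94 for both, which ended their calls. Length correction put the siSRSF1 ratios of Cck, Btbd17 and Rprml at 1.80, 1.99 and 1.98 and ended theirs. Just outside lay Pgls, Zfp112 and Foxo6, with lower ratios of 1.997, 1.99 and 1.98, and Cthrc1, Gm14419 and Rasd1, with higher ratios of 0.508, 0.512 and 0.508. Of the higher members, 45 (39.1%) share exon bases with another annotated gene, as do 8 of the lower members (33.3%) and 36.6% of all compared genes. For Hnrnpab the partner is Phykpl on the opposite strand, with 302 reads in siSRSF1 and 244 in siSRSF2, against 272 in siNC. For Scand1 it is Cnbd2, also on the opposite strand, with 7 reads in siSRSF1 and 25 in siSRSF2, against 6 in siNC.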

How the data were processed

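RNA from 3 transfected MIN6 cultures, 1 per group, was sequenced, and the deposited table gives per gene a read count and an FPKM for each library. The count is a whole number with no normalization, per the file headers, and the FPKM was computed by the authors from count, length and column total (checked to within 0.00045%). Reads were aligned with Bowtie2 2.4.2 on mm10 (GRCm38), per the submitters' processing notes, and the counting tool, annotation, strand and treatment of shared reads are left unstated in those sources. Per-gene counts hold nothing on exon use, and splicing was not analysed.

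Of 21935 lines, 67 shared a symbol and were summed. CPM is the count scaled to the column total, without a prior. Ratio intervals are exact 95% Clopper-Pearson intervals of the split of reads (scipy 1.17.1), pooled over both siRNA libraries for the mean ratio. A ratio to siNC was called with the 2-fold rule, and no test or p-value is given. At these depths 3 reads equal 0.207 CPM in siSRSF1, 0.204 in siSRSF2 and 0.236 in siNC. Exon number, GC content and exon overlap came from GENCODE M21 and the GRCm38 sequence, and GC and length corrections used lowess (fraction 0.3, 3 iterations, statsmodels 0.14.6). Other scalings used edgeR 4.0.16 and DESeq2 1.42.0 under R 4.3.3. Promoters came from RefSeq.

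The members, lists and rules were chosen with earlier results of these data known. Named by rule were both targets, the 15 called genes of each direction with the largest mean ratio and the 15 of highest level at 100 reads or more without predicted genes, members of a list, the 3 nearest each side of the limit and 6 beta-cell genes. The minimum of 100 siNC reads and the removal of overlapping genes were chosen after seeing the data. Of the members, 1 is counted but not reported here by name.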

Additional observations from a re-analysis of the deposited data

How the results depend on the processing

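The counts moved mainly with the minimum of reads and the fold. Higher genes, 115 of 11756 by the rule used, numbered 317 at 1.5-fold and 46 at 3-fold. They numbered 56 of 10177 with at least 100 reads in any library and 25 of 9672 with at least 100 in siNC. Without genes sharing exon bases they numbered 70 of 7457, so that count fell along with the number of genes compared. Lower genes numbered 3 with at least 100 reads in any library, 3 with at least 100 in siNC, 44 with no minimum, 37 with the 2-fold rule on the mean ratio, 88 at 1.5-fold and 2 at 3-fold. Higher members of lists, 20 by the rule used, numbered 44 at 1.5-fold, 8 at 3-fold, 9 with at least 100 siNC reads and 11 without genes sharing exon bases. The single-exon share of higher genes was 33.3% (8 genes) with at least 100 siNC reads, beside 15.9% by the rule used. The share among all genes compared at that minimum is not given. Scaling by TMM kept 109 of the 115 higher genes, median-of-ratios 108, length correction 107 and GC correction 86, and these kept 24, 24, 23 and 23 of the lower genes. Of 245 mean ratios of named genes recomputed with another scaling or correction, 217 stayed within the counting interval and no called one changed direction. Most of the 28 outside it came from GC correction, among them those of Insm1, Pcsk1n, Nrtn, Nr2f6, Nenf, Bbc3, Mafa and Nkx6-1. The named ratios were thus less stable to that correction than the pooled count shows. The scalings moved the median log2 of all genes by less than 0.1. No paired analysis was possible because each group holds 1 library, and for the same reason no library could be left out. The lower genes are limited by depth, with a median of 35 siNC reads.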

Other observations

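In 11 of 11756 compared genes the siRNA libraries lay past 2-fold on opposite sides of siNC, 8 with siSRSF1 higher and siSRSF2 lower and 3 the other way round. Lars2, the mitochondrial leucyl-tRNA synthetase, had 5719 reads in siSRSF1 and 968 in siSRSF2, against 2374 in siNC. Slc2a2, which encodes the GLUT2 glucose transporter, had 114 reads in siSRSF1 and 7 in siSRSF2, against 42 in siNC, and Gm10800, a predicted gene, had 245 in siSRSF1 and 3 in siSRSF2, against 65 in siNC. In the other direction, Pcdh20, a protocadherin, had 18 reads in siSRSF1 and 119 in siSRSF2, against 36 in siNC, Fam13c had 12 in siSRSF1 and 66 in siSRSF2, against 23 in siNC, and Gpm6b, a membrane glycoprotein, had 8 in siSRSF1 and 48 in siSRSF2, against 19 in siNC. Bcl2l14, Ifit1bl1 and Gm21738 had 0 reads in siSRSF2, with 31, 33 and 25 in siSRSF1, against 13, 7 and 6 in siNC. Rnf183 had 44 reads in siSRSF1 and 1 in siSRSF2, against 10 in siNC, and 4930562C15Rik had 115 in siSRSF1 and 16 in siSRSF2, against 36 in siNC. All 11 were named after their values were seen. The treatment of shared reads is unstated for these genes too, Lars2 and Gm10800 among them. Whether their reads came from the named transcripts was not tested.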
